A study of Morus alba var. atropurpurea with 12 samples.

Results

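In mulberry roots (Morus alba var. atropurpurea, cultivar Yuesang10), 92 of the 17782 transcripts examined (0.517%) stayed near their control level at 5 and 10 mM cadmium chloride and stood higher at 20 mM. Plants in nutrient solution without cadmium (control) were compared with plants kept for 20 days in solution with 5, 10 or 20 mM cadmium chloride, with 3 libraries in each of the 4 groups. All groups were of the same cultivar, had been cut back to short shoots and roots, and were grown in full-strength Hoagland solution, per the labels. Doses are given as labelled, and the files hold nothing against which their unit could be checked, although millimolar cadmium is very high for plants in nutrient solution. The labels name root as the tissue while the text of the series speaks of fruit, and they mention 6 groups of plants but describe these 4. Identifiers carried no gene names, so no marker gene could be used to check the tissue. Nothing tells whether the 3 libraries of each dose stem from different plants, and p-values then measure only the spread between libraries, which may be technical. The values are FPKM, read fragments normalized to transcript length and library size, and a transcript that a library did not list was set to 0. In whole roots, fewer cells of a type and less RNA per cell cannot be told apart.

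The members were chosen by their own measured values, so the step that defines them is a description here and carries no test. With L as the group mean of log2(FPKM + 1), a member had at least 1 FPKM in 3 or more libraries, an L at 5 mM and at 10 mM that was less than 0.5 from control in either direction, and an L at 20 mM that was at least 0.75 above control. In addition, each of the 3 libraries at 20 mM had to exceed all 9 others. Of the 22727 transcripts listed in any library, 4945 did not reach the level filter.

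Cadmium is a metal without a known function in mulberry. In plants, roots take it up mainly through carriers of nutrient metals such as iron, zinc and manganese. Roots bind it with thiol peptides made from glutathione (phytochelatins) and with cysteine-rich metallothioneins, and store it in vacuoles and cell walls. Excess cadmium displaces other metals from proteins and leads to oxidative and protein-folding stress, and different defences can come into play at different doses. The transcripts are given only as XM identifiers, which RefSeq uses for predicted messenger RNAs, and the files do not pair them with genes. No member can therefore be assigned to any of these systems here, and only 2 members are given by identifier.

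The largest step among members with a mean of at least 5 FPKM at 20 mM was that of XM_010111965.1. It was not listed in control replicates 1 and 2 and stood at 0.42 FPKM in control replicate 3. The 5 mM libraries gave 0.71, 0.47 and 0.31 FPKM, and the 10 mM libraries 0.30 and 1.66 FPKM, with replicate 3 not listed. At 20 mM it stood at 9.24, 3.69 and 5.18 FPKM, low to moderate in all 3 libraries, while no library of the other groups exceeded 1.66 FPKM. How many reads these values stand for could not be worked out. The difference between 20 mM and control was 2.57 ± 0.39 on the log2(FPKM + 1) scale (SE from the fit over all libraries), a scale that understates changes of low transcripts, and it was 5.04 with a pseudocount of 0.1. It no longer met the rule at that pseudocount, nor when replicate 3 of the control or replicate 1 or 3 of the 10 mM group was left out. A filter at a mean of 5 FPKM over all libraries removed it too.

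XM_010094684.1 had the widest gap between the lowest 20 mM library and the highest of the others. Control libraries gave 9.30, 19.01 and 19.27 FPKM, 5 mM libraries 14.89, 16.15 and 13.94 FPKM, and 10 mM libraries 12.51, 24.33 and 29.18 FPKM. At 20 mM the values were 91.17, 61.94 and 73.00 FPKM, more than double the highest value of any other library. The group means were 15.9 ± 5.68, 15.0 ± 1.11, 22.01 ± 8.57 and 75.4 ± 14.8 FPKM in the order of dose (SD, n = 3), a 4.75-fold ratio of 20 mM to control. On the log2(FPKM + 1) scale the difference from control was -0.01 at 5 mM, 0.44 at 10 mM and 2.23 ± 0.32 (SE) at 20 mM. The 2 higher values at 10 mM put it close to the limit of 0.5, and it left the set when replicate 2 or 3 of the control or replicate 1 of the 10 mM group was dropped.

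**Figure D1:**
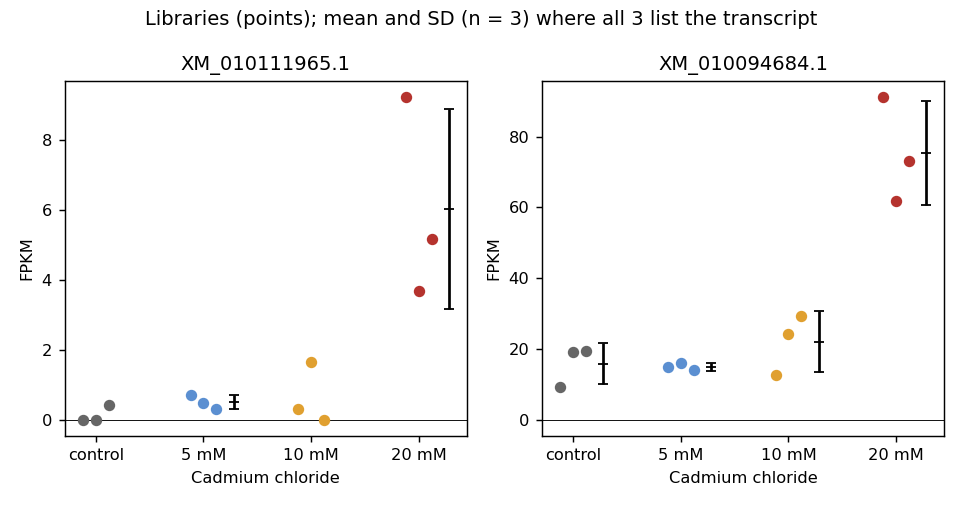
FPKM (vertical axis, from 0) of XM_010111965.1 and XM_010094684.1 in the 3 libraries of each group (points), with mean and SD where all 3 libraries list the transcript. The 20 mM libraries lie between 3.69 and 9.24 FPKM and between 61.94 and 91.17 FPKM, above every library of the other groups.

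The members ranged from scarce to abundant transcripts. Their mean at 20 mM ran from 1.40 to 1431 FPKM with a median of 21.5 FPKM, against a median of 11.2 and a maximum of 17090 FPKM over all 17782 transcripts. In control the median of the members was 9.29 FPKM and that of all transcripts 10.5 FPKM. The members' median without cadmium was thus close to that of transcripts in general. At 20 mM, 17 members had a mean under 5 FPKM, 28 lay between 5 and 20, 29 between 20 and 100, and 18 (19.6%) at 100 FPKM or more, where 10.8% of all transcripts lay. Because the rule chose the members for being higher at 20 mM, the comparisons with all transcripts at that dose are partly set by it. The median step was 1.08, 1.13, 1.21 and 1.07 log2 units in these 4 classes of rising abundance, on the log2(FPKM + 1) scale that shrinks the steps of low transcripts. As a ratio of mean FPKM, over the 5, 26, 29 and 18 members of each class that every library listed, the median was 2.68, 2.33, 2.33 and 2.05. To reach the same step on the log2(FPKM + 1) scale, a scarcer transcript needs a larger ratio. The order of these ratios is therefore partly set by the rule. All members were listed in the 3 libraries at 20 mM, 78 were listed in all 12 libraries, and 2 were listed in no control library.

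The most abundant member was already abundant without cadmium. Control libraries gave 398, 786 and 1001 FPKM, those at 5 mM gave 938, 902 and 764 FPKM, those at 10 mM gave 723, 877 and 977 FPKM, and those at 20 mM gave 1717, 1193 and 1381 FPKM. Its 20 mM libraries were clear of the rest although control replicate 1 lay far below the other 2 controls. The abundant member with the strongest step had control values of 67.53, 85.78 and 78.97 FPKM, 5 mM values of 71.14, 142.99 and 27.86 FPKM, 10 mM values of 62.40, 63.07 and 65.36 FPKM, and 20 mM values of 572.81, 186.79 and 431.00 FPKM. Here the 3 libraries at 10 mM were nearly equal, whereas those at 20 mM differed 3-fold among themselves. Both were picked from the 18 members at 100 FPKM or more after their values were seen.

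Together the 92 transcripts took up a small share of each library that was larger at 20 mM. They made up 0.336%, 0.437% and 0.554% of the FPKM sum in the control libraries, 0.485%, 0.536% and 0.526% at 5 mM, and 0.349%, 0.506% and 0.569% at 10 mM. In the 20 mM libraries the share was 1.005%, 0.907% and 0.858%. The mean share was 0.442 ± 0.109% in control and 0.923 ± 0.0749% at 20 mM (SD, n = 3), about double, with the 5 and 10 mM means at 0.516 ± 0.0270% and 0.474 ± 0.113%.

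Most steps were of moderate size. The difference between 20 mM and control ran from 0.76 to 2.57 log2 units with a median of 1.11 and quartiles of 0.91 and 1.36, while the median over all transcripts was 0.06. At least 1 log2 unit was reached by 60 members, 1.5 by 10 and 2 by 5. Among the 78 members listed in every library, the ratio of mean FPKM at 20 mM to control had a median of 2.27 and ran from 1.69 to 7.77, with 53 at 2 or more and 13 at 3 or more. Measured from the neighbouring dose, the step from 10 to 20 mM had a median of 1.02 log2 units and a range of 0.42 to 2.48. Against 5 mM the median was 1.03 and the range 0.43 to 2.43.

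**Figure D2:**
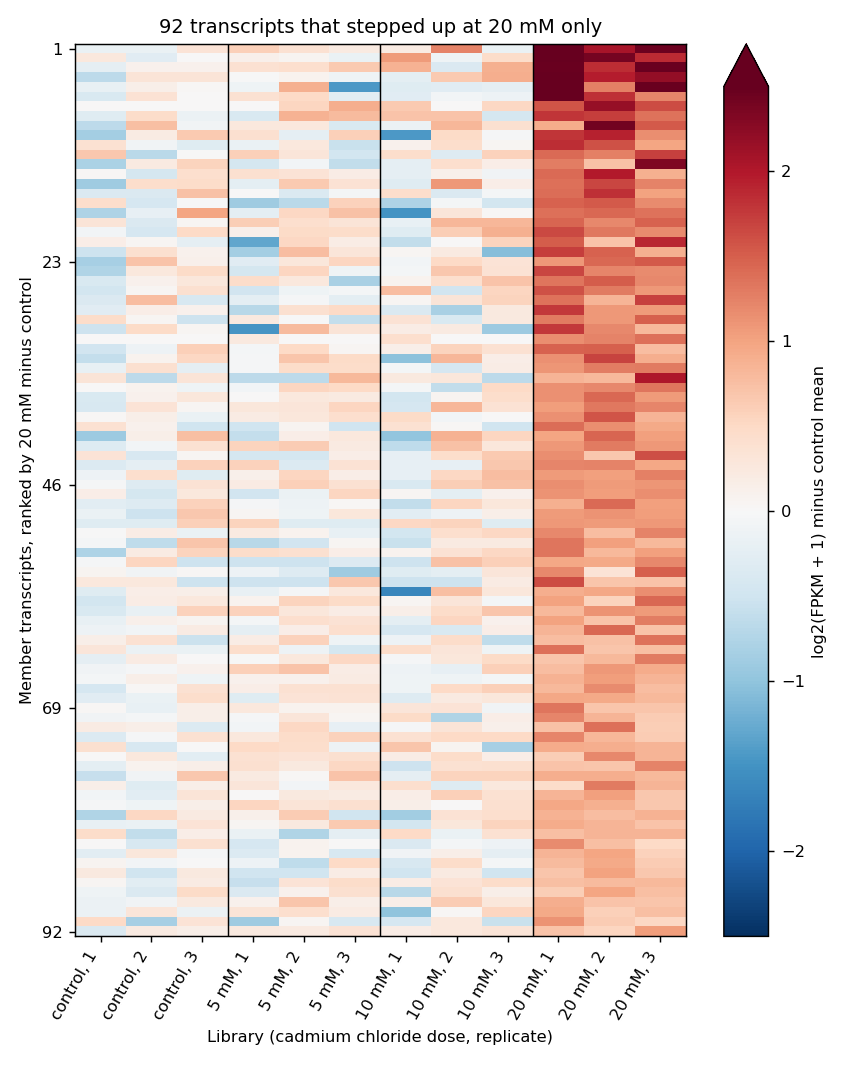
Each row is a member, ranked from the largest to the smallest difference between 20 mM and control, and each column a library (dose, replicate); colour gives log2(FPKM + 1) minus the control mean, with values above 2.5 in the darkest red. The 3 columns at 20 mM are red throughout, as the rule requires, and the other 9 mix paler red and blue.

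Below 20 mM the members lay slightly above control more often than below it. At 5 mM 61 were above and 31 below control, with a median difference of 0.14 log2 units, and at 10 mM 59 were above and 33 below, with a median of 0.13. Among the 10872 transcripts (61.1% of all) that were within 0.5 of control at both lower doses, 57.1% were above control at 5 mM and 57.9% at 10 mM, with medians of 0.05 and 0.06. The members' shares of 61 and 59 in 92 are not far from these, and no test was made because the rule used these differences. With every library scaled to the same median, the members' medians were 0.066 at 5 mM and 0.0093 at 10 mM, and after quantile normalization 0.078 and 0.048. Both lower doses were above control in 42 members and below it in 14. A further 19 were above at 5 mM and below at 10 mM, and 17 showed the reverse.

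No trend from 5 to 10 mM was seen over the members. In 46 the 10 mM mean was above the 5 mM mean and in 46 below it, with a median difference of -0.0046 log2 units and a range of -0.72 to 0.73. This is partly set by the rule, which left out transcripts that passed its limit at either dose. Of the 62 left out that stepped up without overlap, 26 passed it upwards at 10 mM only and 12 at 5 mM only. A further 12 did so at both doses, and 12 passed it downwards at a lower dose. Whether transcripts chosen without that limit show a trend was not tested. Group means followed the order of the doses in 20 members. In 32 members both lower doses were less than 0.25 from control. The set therefore mixes profiles that were level up to 10 mM with others near the limit of the rule, since in 17 members a lower dose was 0.4 or more from control.

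The thresholds cut through a continuous distribution. The smallest step inside the set was 0.76 log2 units, and the nearest transcript outside it stood at 0.75 (0.748 before rounding). At 5 mM the members reached a distance of 0.497 from control and the next transcript outside lay at 0.524, and at 10 mM these distances were 0.493 and 0.505. The narrowest gap between the 20 mM libraries and the others was 0.00046 log2 units, in a member with 61.34 FPKM in its lowest 20 mM library and 61.32 FPKM in a 5 mM library. The next transcript outside had equal values (a gap of 0).

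Transcripts that stepped up at 20 mM without overlap were partly level up to 10 mM and partly not. Of all transcripts, 1.38% (245) had every 20 mM library above the other 9, and 154 of these were also at least 0.75 log2 units above control. The 92 members are 59.7% of those 154, close to the 61.1% of all transcripts that were level at both lower doses. Among the other 62, 26 were at least 0.5 above control at 10 mM only, 12 at 5 mM only and 12 at both, and 12 were at least 0.5 below control at a lower dose. These 62 had larger steps (median 1.45, range 0.80 to 3.72 log2 units) and a median of 23.8 FPKM at 20 mM. In contrast, 213 transcripts had the level profile and the step but overlapped with another library, so that the requirement on single libraries removed most of the 305 that met the conditions on group means.

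**Figure D3:**
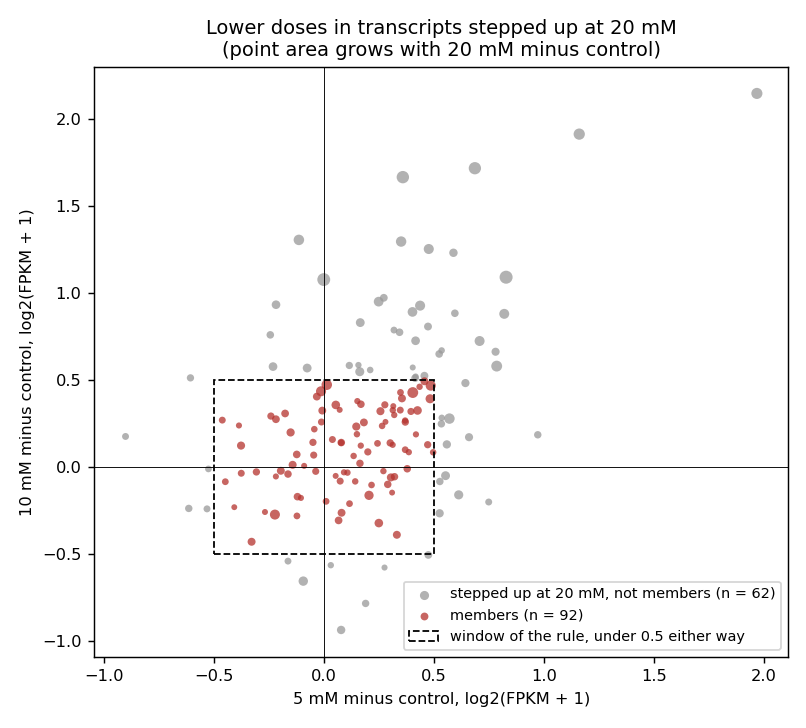
The 154 transcripts that stepped up at 20 mM with no overlap, by their difference from control at 5 mM (horizontal) and at 10 mM (vertical), both in log2(FPKM + 1); point area grows with the 20 mM step and the dashed square is the window of the rule. The 92 members (red) fill the square, and most of the other 62 (grey) lie above it or to its right.

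Seen from the falling side and from the other doses, the same rule gave sets of different sizes. Mirrored, it found 64 transcripts that stepped down at 20 mM only, which are 40.0% of the 160 that fell by at least 0.75 log2 units with every 20 mM library below the others. Their median difference from control was -1.15 log2 units, similar in size to the members' 1.11. Both sets were cut at the same size of step, so a likeness of the medians is partly set by the rule. With 10 mM as the dose standing apart and 20 mM held within 0.5 of control, 121 transcripts stepped up and 24 stepped down. With 5 mM in that place the counts were 16 and 30. More transcripts therefore stood up at 10 mM alone than at 20 mM alone, and few at 5 mM alone, but the 3 counts share their control libraries and the spread differed between groups.

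The 20 mM libraries were clear of the rest by a narrow margin in many members. The gap between the lowest 20 mM library and the highest other library had a median of 0.24 log2 units, was under 0.1 in 17 members and at least 0.5 in 20, and reached 1.06. The highest of the 9 other libraries was a 10 mM library in 40 members, a 5 mM library in 30 and a control library in 22. Over all transcripts those shares were 43.4%, 26.8% and 29.8%, so among the members the runner-up was a 10 mM library about as often as elsewhere. Within the 20 mM group, replicate 1 was the highest in 32 members, replicate 2 in 33 and replicate 3 in 27. The shares over all transcripts were 23.6%, 40.1% and 36.3%. The rule required all 3 libraries to be on top, so these counts cannot show whether 1 library carried the set. Replicate 3 was the lowest in 43 members, replicate 2 in 30 and replicate 1 in 19, where over all transcripts the shares were 35.2%, 31.8% and 33.0%.

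At 20 mM the 3 libraries agreed well for most members, which the rule favours. The highest 20 mM library exceeded the lowest by a median of 1.44-fold in FPKM and by at least 2-fold in 17 members, with a maximum of 3.65-fold. The median SD between the 3 libraries was 0.26 log2 units at 20 mM for the members and 0.30 for all transcripts. In the other groups the members varied more than transcripts in general, with median SDs of 0.38 against 0.34 in control, 0.31 against 0.27 at 5 mM and 0.43 against 0.32 at 10 mM.

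Replicate 1 of the 10 mM group and replicate 1 of the control were low for the members. The median member lay 0.22 log2 units below its group mean in 10 mM replicate 1 and 0.16 below it in control replicate 1, whereas the medians over all transcripts were 0.02 and 0.06 above. In 10 mM replicate 1, 68 of 92 members were below their group mean, against 47.7% of all transcripts. In control replicate 1 this held for 61 members, against 41.6% of all transcripts, and in both libraries at once for 52 members (56.5%), against 24.6%. The other 2 libraries at 10 mM stood a median of 0.30 and 0.28 log2 units above control in the members, and replicate 1 stood 0.11 below it. Of the other 62 transcripts that stepped up, 42 were also below their group mean in 10 mM replicate 1. Over all transcripts, the deviations of a 10 mM library and the control of the same number from their group means correlated with an r of 0.268, 0.170 and 0.176 for replicates 1, 2 and 3. The 64 transcripts that stepped down at 20 mM only showed the opposite, with 48 above their group mean in 10 mM replicate 1 and a median deviation of 0.40 log2 units. The rule limited the 10 mM mean and required every 10 mM and control library to lie below the 20 mM libraries, or above them when mirrored. The counts in these sets therefore rest on values that the rule selected on, and they were not tested.

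The level profile at 10 mM rested in part on that library. From replicates 2 and 3 alone, the median difference between 10 mM and control was 0.24 log2 units in the members and 0.10 over all transcripts, and 20 of the 92 members were then 0.5 or more above control and 0 were 0.5 or more below. Applied without 10 mM replicate 1, the rule kept 72 of the 92 members and took in others to reach 83. The set leaned on the control libraries too, since 73, 68 and 61 members were kept without control replicates 1, 2 and 3. Whether the low values of 10 mM replicate 1 reflect the plants, the RNA or the sequencing was not tested.

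**Figure D4:**
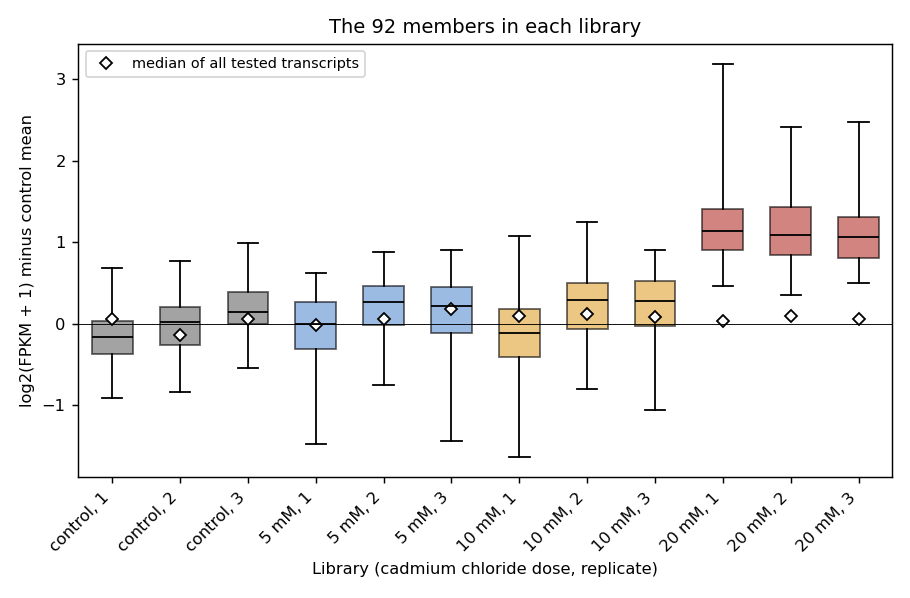
Distribution of the 92 members in each library as log2(FPKM + 1) minus the control mean (box, quartiles and median; whiskers, lowest and highest member), with the median of all 17782 transcripts as an open diamond. The members' medians are 1.14, 1.09 and 1.06 in the 20 mM libraries and between -0.16 and 0.30 in the other 9, with control replicate 1 and 10 mM replicate 1 the lowest.

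At the low end, some members rested on very few reads. Values of scarce transcripts in FPKM tables rise in steps of 1 read, and for 4 of the 14 members that were not listed in at least 1 library every value lay within 0.15 of a whole multiple of such a step. These 4 correspond to 2 reads in the lowest 20 mM library, to at most 6 in any 20 mM library, and to at most 2 in any other library. For 2 of them the lead over the next library was 1 read, and for the other 2 the number of reads was equal and the 20 mM library ranked higher only after scaling to depth. These 4 are members by rule but not distinguishable at this depth. Without them, 88 members remained with a median step of 1.12 log2 units. For the rest of the 14 no such step was found, so their numbers of reads are unknown and may be few as well.

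A few members had neighbouring identifier numbers. Consecutive numbers joined 7 members in 4 pairs, 3 of those members forming a run. The nearest comparison sets had 2 such pairs among the other 62 stepped-up transcripts and 0 among the 64 stepped-down ones, and 70.1% of all transcripts had the next number in the table too. In a first abundant pair the means were 86.5, 99.2, 65.3 and 199.2 FPKM and of 224, 284, 242 and 522 FPKM in the order of dose. Over the 12 libraries its log2 values correlated with an r of 0.94, and their deviations from group means with an r of 0.89. A second abundant pair had means of 513, 630, 501 and 865 FPKM and of 48.5, 39.8, 56.5 and 116 FPKM, with r values of 0.64 and 0.59. In the run of 3, the deviations of the first and second members correlated with an r of 0.55 and those of the second and last with an r of -0.78. These are descriptions over 12 shared libraries. Near-identical transcripts can share reads in ways these files do not show, and whether such pairs are variants of 1 gene, copies or unrelated genes is not given in the sources used here.

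Few of the members passed a test corrected for all transcripts. Between 20 mM and control, limma with Benjamini-Hochberg adjustment over 17782 transcripts called 14 members higher (15.2%), where 0.579% (103) of all transcripts were called higher. Between 20 and 5 mM it called 4 members, against 0.107% (19) of all, and these 4 were among the 14. Between 20 and 10 mM it called 0 members, against 0.00562% (1 transcript) of all, while 82 members and 4.29% of all transcripts (763) were higher at an unadjusted p under 0.05. Without the level filter 2 members were called in this contrast, and with a filter at a mean of 5 FPKM 1 member was. The members were chosen on these same contrasts, so nothing is read from these counts. The 14 had a median step of 1.46 log2 units, a smallest step of 0.85 and means at 20 mM between 1.40 and 153 FPKM.

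The counts of calls moved with single libraries. The 14 members are 13.6% of the 103 transcripts called higher at 20 mM against control and 15.2% of the 92 members. Of the 89 called transcripts outside the set, 87 were at least 0.5 log2 units above control at 5 or 10 mM, whereas 61.1% of all transcripts were level at both lower doses. This is largely set by the rule, since a called transcript that was level at both could enter the set. The differences at all doses also share the same control libraries. The count of 14 became 5 when replicate 1 of the control or replicate 1 or 2 of the 20 mM group was dropped, and 9 when replicate 2 of the 5 mM group or replicate 3 of the 20 mM group was. Dropping replicate 1 of the 10 mM group raised it to 23, and fitting the 2 groups alone gave 5. Over all transcripts the 103 became 37 and 61 on dropping replicates 1 and 2 of the control, 51 on dropping replicate 2 of the 5 mM group, and 35 and 34 on dropping replicates 1 and 2 of the 20 mM group. The 4 calls against 5 mM became 0 on dropping replicate 1 of the 20 mM group, 1 on dropping any library of the 5 mM group, and 2 on dropping replicate 1 of the control or replicate 2 of the 20 mM group, and 7 where the 2 groups were fitted alone.

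Both the size and the membership of the set changed when a library was left out. Left without a single control, 5 mM or 10 mM library, the rule found between 83 and 119 transcripts, and without 20 mM replicates 1, 2 or 3 it found 144, 139 and 188, since fewer libraries then had to be on top. Between 61 (without control replicate 3) and 86 (without 10 mM replicate 3) of the 92 were found again in these 12 repeats, and 17 were found in all of them. The median step ran from 1.0 to 1.131 log2 units. Each repeat applied the same cut on the step and took the median of its own set, so this narrow range is partly set by the rule. In 7 of the repeats the median lay at least 1 SD from 1.11, the SD being that between the members' medians in the 3 libraries at 20 mM. Scaling every library to the same median gave 97 transcripts, 73 of them among the 92, and moved the median difference between 10 mM and control over all transcripts by -0.11. Of the 92 members, 11 were then called higher against control and 2 against 5 mM. A pseudocount of 0.1 gave 81 transcripts, 69 of them shared with the 92.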

How the data were processed

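Roots from 4 groups of 3 libraries were profiled. The authors deposited FPKM per transcript, per the file headers, listing only values above 0 to 2 decimals (lowest 0.01). Names of the aligner, counting tool and genome build were not given in the sources used here. Unlisted transcripts were set to 0. Groups and replicate numbers came from sample titles. Absolute depth is unknown. In 1090 sparse transcripts, 83.9% of 7012 values came within 0.1 of whole read multiples, and the relative worth of 1 read ran from 0.945 to 1.06 over the libraries.

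The rule was applied to log2(FPKM + 1). Tests used limma 3.58.1 in R 4.3.3 over all 12 libraries, with a variance trend, no block, two-sided p-values and Benjamini-Hochberg adjustment at 0.05. Both steps were tested on simulated data. Scripts ran in Python 3.11.15. Members and lists were chosen with earlier results of these data known. Identifiers named are the member with the largest step among those with a mean of at least 5 FPKM at 20 mM, and the member with the widest gap. Lists of gene families, set as product descriptions, could not be applied without names. Alternatives were other pseudocounts, filters, scalings, thresholds and fits, and each library left out.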

Additional observations from a re-analysis of the deposited data

How the results depend on the processing

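The number of members stayed within 1.5 times 92 under a pseudocount of 0.1, no filter, a filter at a mean of 5 FPKM, median scaling, quantile normalization, a limit of 0.4 or 0.6 for the lower doses, a step of 0.5, and removal of the 4 members of few reads (an alternative chosen after seeing the data). Across these settings the number ran from 62 with the filter at a mean of 5 FPKM to 135 with a step of 0.5. It was 60 with a step of at least 1 and 305 without the requirement that every 20 mM library is on top. Leaving out 1 library gave 83 to 188 members and median steps of 1.0 to 1.131. The transcripts called higher by limma at 20 mM against control were 34 to 152 without 1 library and 46 where the 2 groups were fitted alone. Against 5 mM they were 7 to 27 and 32, and against 10 mM 0 to 2 without 1 library, 0 at the lower pseudocount, 3 unfiltered and 4 under the stricter filter. The cause of these shifts was not tested. Deviations of 20 mM libraries from their group means correlated with those of same-numbered libraries of other groups with r from -0.187 to 0.0626. For control and 10 mM libraries r ran from 0.170 to 0.268, and for control and 5 mM libraries from 0.0205 to 0.202. Libraries of different numbers were not compared, so whether the numbers pair libraries was not tested. With the replicate block the calls were 108, 14 and 2 against control, 5 and 10 mM. Absolute depth is unknown, which limits what members under 5 FPKM can show.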
